A study of Mus musculus with 20 samples.

Results

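The members are 52 interferon genes, chosen by name from the gene lists of the libraries, and 51 of them were found there. The choice was made with earlier results of these data known. Mx2 was not found under that symbol. The genes found are 45 that interferons stimulate, the receptor chains Ifnar1, Ifnar2, Ifngr1 and Ifngr2, and the ligands Ifng and Ifnb1. Levels were read in single-cell RNA-seq libraries of stromal vascular cells from mouse interscapular brown adipose tissue (iBAT), in which mature adipocytes are largely absent. Each of 10 experiments gave 1 library of cells that bound magnetic beads against immune lineage markers (Lin+) and 1 library of cells that did not (Lin-), and each pooled the tissue of 3 to 4 mice aged 8 to 14 weeks.

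Male C57 mice were kept at colony room temperature (RT, 24 °C), held at 6 °C during 4 days (COLD), or given for 4 days, by osmotic pump, CL316,243 (CL, 0.75 nmol per hour), an agonist of the β3-adrenergic receptor that is abundant on adipocytes. Each of these groups had 2 experiments. Mice at 6 °C were kept singly in an incubator, in static cages that lacked nesting material. No group with an implanted pump that lacked CL is described. Cold cannot be told apart from this housing, nor CL from the implanted pump. Female mice of an Adrb1 line carried floxed alleles of Adrb1, the β1-adrenergic receptor gene, on both chromosomes. They lacked Pdgfra-CreER, a Cre that tamoxifen activates (Adrb1 WT), or carried 1 copy of it (Adrb1 KO), all received tamoxifen, and they were kept at RT or moved to 6 °C during 4 days, with 1 experiment per group. The Cre is driven by Pdgfra, so deletion was limited to cells that use this gene, such as adipose stromal cells. In the Adrb1 line, the RT libraries were made with version 3 of the kit and on other days than the cold libraries, which were made with version 2, so that kit and temperature cannot be told apart there. The 2 experiments of a C57 group were made from separate mice, and p-values measure the spread between these experiments.

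Cells were grouped into classes by clustering on genes other than the members, and named from marker genes. The suffix "-like" marks that a name rests on expression. ASC stands for adipose stromal cell, VSMC for pericyte and vascular smooth muscle cell, VEC for endothelial cell, MAC for macrophage, MONO for monocyte, NEUT for neutrophil, DEND for dendritic cell, Blym and Tlym for B and T lymphocyte and NK for natural killer cell. DEND1-like cells carry markers of conventional type 1 dendritic cells, DEND2-like those of type 2 or monocyte-derived cells, DEND3-like those of mature migratory cells and DEND4-like those of plasmacytoid cells. The gene named after a class tells clusters of a class apart. The stromal and vascular classes of the Lin- fraction and the immune classes of the Lin+ fraction were tested where each C57 library held at least 20 cells, which left 6 and 13 classes. RBC-like (red blood) cells of the Lin+ fraction also held that many and were left out because they are not immune cells. MAC1-like cells (1 and 0 in the C57 RT libraries), MAC-like Ccl8 cells (19 and 29) and PROLIF-like (proliferating) cells (11 and 3) held too few for a test. The same held for ADIPO-like (adipocyte) cells, with 1 and 20 at RT and 1149 and 391 in cold. MUSCLE-like and MAST or BASO-like (mast cell or basophil) cells were too few as well. Some tested classes were small at RT, such as MAC3-like cells with 25 and 25 and DEND4-like cells with 27 and 26.

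Interferons are secreted proteins by which cells warn each other of infection. Type I interferons, the many Ifna genes and Ifnb1, signal through the receptor chains IFNAR1 and IFNAR2 to the kinases JAK1 and TYK2, which activate the complex ISGF3. This complex, which holds STAT2 and IRF9, binds the interferon-stimulated response element (ISRE). Type II interferon, the product of Ifng, is made mainly by T and NK cells, signals through IFNGR1 and IFNGR2, and acts on genes that hold the gamma-activated site (GAS). Type III interferons act through IFNLR1 and IL10RB and mostly on epithelial cells. Among the stimulated genes, the Ifit, Oas, Mx, Rsad2, Bst2 and Ifitm3 products block steps of viral replication. Isg15 is a ubiquitin-like modifier that USP18 removes, and the Gbp and Irg families encode GTPases that attack vacuoles of intracellular microbes.

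The promoters of the members were read for the response elements of the pathway. RefSeq windows of the GRCm38.p6 build, from 250 bases before to 50 bases after the gene start in that table, were matched by symbol for 41 members, and windows of this length were searched on both strands. The letters GAAANNGAAA, the core of the ISRE, were found in 20 of 35 stimulated members with a window (57.1%), in 0 of 6 ligand and receptor genes and in 3.99% of 27025 genes. The letters TTCNNNGAA of the GAS were found in 10 of 35 stimulated members (28.6%), in 3 of 6 ligand and receptor genes and in 9.55% of all genes. Both motifs can overlap themselves and each other. A match of letters is a description and not a bound site. Below, the letters of the motif that a stretch is shown for, the ISRE core or in Irf1 the GAS, are in capitals, each stretch is written 5′ to 3′ on the strand of its gene, and TTTC pairs are the ISRE core read on the other strand. Isg15, Ifit1, Ifit3, Rsad2, Bst2 and Oas3 are shown as antiviral genes whose values follow, Gbp2, Igtp and Irgm1 as GTPase genes, and Irf1 as a stretch with a GAS.
Isg15, chr4:156200860-156200911, minus strand: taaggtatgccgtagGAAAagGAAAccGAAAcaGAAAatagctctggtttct
Ifit1, chr19:34640770-34640828, plus strand: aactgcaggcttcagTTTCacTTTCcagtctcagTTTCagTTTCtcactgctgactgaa
Ifit3, chr19:34583358-34583431, plus strand: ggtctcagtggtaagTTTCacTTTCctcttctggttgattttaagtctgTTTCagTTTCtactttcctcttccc
Rsad2, chr12:26456548-26456587, minus strand: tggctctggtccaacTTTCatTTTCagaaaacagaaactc
Bst2, chr8:71537572-71537617, minus strand: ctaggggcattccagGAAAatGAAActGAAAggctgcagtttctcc
Oas3, chr5:120777710-120777749, minus strand: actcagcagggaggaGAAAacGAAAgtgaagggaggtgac
Gbp2, chr3:142620589-142620628, plus strand: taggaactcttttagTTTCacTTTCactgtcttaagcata
Igtp, chr11:58199507-58199546, plus strand: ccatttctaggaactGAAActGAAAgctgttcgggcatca
Irgm1, chr11:48871421-48871465, minus strand: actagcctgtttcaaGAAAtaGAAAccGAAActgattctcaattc
Irf1, chr11:53769909-53769947, plus strand: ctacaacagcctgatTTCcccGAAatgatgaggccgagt

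Isg15 and Bst2 each held GAAA repeats that overlap, whereas Ifit1 and Ifit3 held 2 separate matches each. The window of Ifit3 is set on a start that lies inside the span the RefSeq gene table gives for the gene, downstream of its first base. The Irf1 stretch held a GAS and its window held no ISRE core. The Bst2 and Igtp stretches also held a GAS, TTCCAGGAA and TTCTAGGAA, which is not marked by capitals there. No window was given for Mx1, Mx2, Oas2, Usp18, Dhx58, Zbp1, Ifi204, Ifi27l2a, Rtp4, Parp14 or Iigp1.

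Filtering left 66339 Lin- and 59935 Lin+ cells. The Lin- library of C57 RT 2 stood apart: 27.96% of its barcodes were kept and 72.0% exceeded the limit on mitochondrial UMIs. The Lin+ and Lin- libraries of C57 CL 2 shared 1098 barcodes where 58.2 would be shared by chance, whereas the ratio to chance was at most 1.37 in any other pair of libraries. In the Lin+ library, 1056 of the shared barcodes belonged to unnamed clusters. In the Lin- library, 337 of the same barcodes belonged to ASC2-like, 291 to ASC1-like and 96 to ASC3-like cells and 217 to unnamed clusters. Adrb1 was read at 14 and 50 UMIs in the ASC-like classes of the WT RT and WT COLD libraries and at 1 and 7 UMIs in those of KO RT and KO COLD, which went with their labels.

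The first comparison asks which classes raised interferon response genes after 4 days of cold. Over the 19 classes, 785 pairs of a class and a member were tested, and 258 were higher and 4 lower in cold (edgeR quasi-likelihood test, Benjamini-Hochberg adjusted over all genes). Of all pairs of a class and a gene, 3.18% were called, and 1.6% were called higher. As the members were chosen with earlier results of these data known, counts set beside the share of all genes are descriptions. The total of 262 called pairs was 149 without RT 1, 171 without RT 2, 154 without COLD 1 and 111 without COLD 2. Members that rose were found in the stromal, vascular, dendritic, macrophage, neutrophil, NK and Cxcr6 T cell classes, and none were called by edgeR in the B cell, Lef1 T cell and both monocyte classes. Over these 4 classes, 16 were called with both lines in a fit, 12 with classes from the nearest centroid, 7 without a filter on low counts, 0 to 5 without 1 library and 0 with the replicate block or DESeq2. Numbers in parentheses give the count of called members where the replicate block or the absence of 1 library moved it by over 1.5 times, and where DESeq2, classes from the nearest centroid or the absence of the top doublet scores lowered it by as much. In ASC1-like cells, 39 of 49 members rose, where 6.12% of all genes tested were called higher, and the median log2 fold change of members was 1.49, against a median near 0 over all genes. Without the ASC1-like cluster led by Ccl2, Tnc and Cxcl10, 35 members were called. 34 of 49 members rose in ASC2-like cells, where 0.612% of all genes tested were called higher (6 without RT 2 or COLD 2, 17 without RT 1, 18 without COLD 1, 9 by the nearest centroid). 18 of 45 members rose in ASC3-like cells, where 0.416% of all genes tested were called higher (10 without COLD 2, 11 without RT 1). 5 of 37 members rose in SCHWANN-like cells, where 0.5% of all genes tested were called higher (3 without COLD 2, 8 without COLD 1, 9 without RT 2, 10 without RT 1, 3 without the top doublet scores). 10 of 44 members rose in VSMC-like cells, where 0.181% of all genes tested were called higher (18 with the replicate block, 3 without COLD 1 or COLD 2, 6 without RT 2, 3 by the nearest centroid, 1 without the top doublet scores).

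In VEC-like cells, 9 of 47 members rose, where 0.185% of all genes were called higher. No member was called there without any 1 of RT 1, RT 2, COLD 1 or COLD 2 (0 in each), and a single cluster, 78.1% of it from C57 CL 1, held most VEC-like cells of that library. The members' median log2 fold change was 0.81 in VEC-like cells. The summed level of the 45 stimulated members, in CPM (the UMIs of a gene in the class divided by all UMIs of the class in that library, times 1000000), was 5249 and 4461 CPM at RT, 14144 and 16727 CPM in cold and 7936 and 7614 CPM with CL in ASC1-like cells. It was 5391 and 5336 CPM at RT, 13543 and 22213 CPM in cold and 8468 and 7769.6 CPM with CL in ASC2-like cells. In VEC-like cells the sum was 8078 and 7868 CPM at RT, 13116 and 14060.2 CPM in cold and 8595 and 8255 CPM with CL. Both cold libraries lay above all RT and CL libraries in these 3 classes. VEC-like cells had the highest sum of the 3 at RT and the smallest ratio of cold to RT, 1.70, against 3.18 in ASC1-like cells.

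The levels of 13 immune markers, Ptprc and other leukocyte and macrophage genes, were summed in the Lin- classes. In ASC1-like cells they summed to 400.3 to 597 CPM at RT, 197 to 278 CPM in cold and 259 to 351 CPM with CL, lower in cold, and 0 to 6 of the 13 were at 0 in a library. Ptprc, the defining leukocyte marker, was at 0 to 0.711 CPM. In VEC-like cells they summed to 88.4 to 106 CPM at RT and 61.4 to 88.2 CPM in cold. The part of other cell types in the members' rise was not tested. The clusters that make up ASC1-like cells shifted: 2682 of 3124 cells at RT were in the 2 clusters led by Smoc2 and Cxcl14, whereas in cold 5329 of 5797 were in the cluster led by Fst and Cpxm1 or in that led by Ccl2, Tnc and Cxcl10, as were 3251 of 3529 with CL. Clusters of other tested classes shifted too. In ASC2-like cells, 1 cluster held 1115 cells at RT and 511 in cold, and another held 887 and 1273. In VEC-like cells, 1 cluster held 1152 cells at RT and 503 in cold, and another held 458 and 590. The part of these shifts in the members' rise, or in the differences between classes given below, was not tested. Fewer cells of a kind and less RNA per cell within a class cannot be told apart in these sums.

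**Figure D1:**
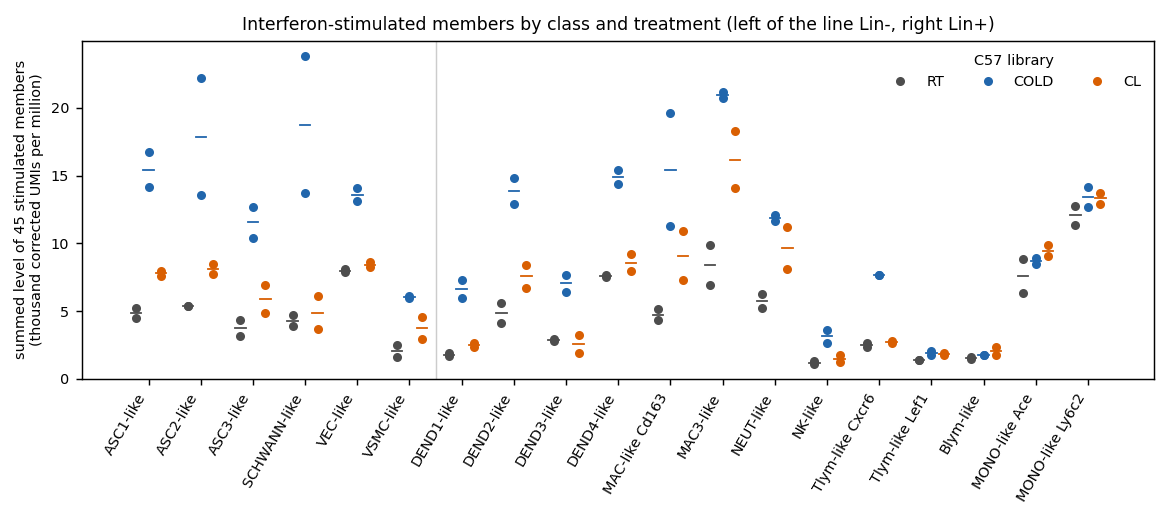
Summed level of the 45 stimulated members, in units of 1000 CPM on a linear axis from 0, in each of the 19 tested classes, with 1 point per C57 library and a short line at the mean of the 2. Cold libraries lie above the RT libraries in ASC1-like, DEND2-like and Tlym-like Cxcr6 cells, and all groups lie close together in Blym-like and MONO-like Ly6c2 cells.

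Among the Lin+ classes, DEND2-like and DEND1-like cells held the most called members. In addition to 1 that fell, 37 of 48 members rose in DEND2-like cells, where 7.51% of all genes tested were called higher (22 without RT 1). In addition to 2 that fell, 29 of 43 members rose in DEND1-like cells, where 2.66% of all genes tested were called higher (9 without RT 1, 16 without RT 2, 17 without COLD 2, 20 without COLD 1, 18 by the nearest centroid). 6 of 32 members rose in DEND3-like cells, where 2.02% of all genes tested were called higher (1 without RT 1 or RT 2 or COLD 2). 9 of 29 members rose in DEND4-like cells, where 1.67% of all genes tested were called higher (2 without COLD 2, 3 without COLD 1, 4 without RT 2, 5 by DESeq2). 15 of 44 members rose in Tlym-like Cxcr6 cells, where 0.374% of all genes tested were called higher (8 without COLD 1, 9 without COLD 2, 9 by DESeq2). 12 of 32 members rose in NK-like cells, where 0.89% of all genes tested were called higher (1 without COLD 2, 5 without COLD 1, 2 by DESeq2). In the myeloid classes, 15 of 47 members rose in MAC-like Cd163 cells, where 0.729% of all genes tested were called higher (1 without COLD 2, 3 without RT 1, 8 without COLD 1, 9 without RT 2). 11 of 47 members rose in MAC3-like cells, where 0.475% of all genes tested were called higher (17 with the replicate block, 0 without COLD 1, 1 without COLD 2, 3 without RT 1, 5 without RT 2). 9 of 46 members rose in NEUT-like cells, where 1.87% of all genes tested were called higher (17 with the replicate block, 1 without COLD 2, 3 without RT 1 or COLD 1, 4 by the nearest centroid, 1 without the top doublet scores). A further member fell in NEUT-like cells.

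No member was called after cold by edgeR in Blym-like cells (0 of 40, background 0.111%), Tlym-like Lef1 cells (0 of 32, background 0.051%), MONO-like Ace cells (0 of 29, background 0.196%) and MONO-like Ly6c2 cells (0 of 45, background 0.0155%). At an unadjusted p under 0.05, 11, 6, 8 and 10 members passed in these classes, and DESeq2 called 0, 0, 0 and 0. MONO-like Ly6c2 cells, the classical monocytes, had one of the highest sums at RT: the stimulated members summed to 11364 and 12788 CPM at RT, 12705 and 14139 CPM in cold and 12908 and 13736 CPM with CL. B cells had a low sum in all groups, 1491 and 1626 CPM at RT, 1724 and 1749 CPM in cold and 2361 and 1741 CPM with CL. A class without a call could have a high or a low level.

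**Figure D2:**
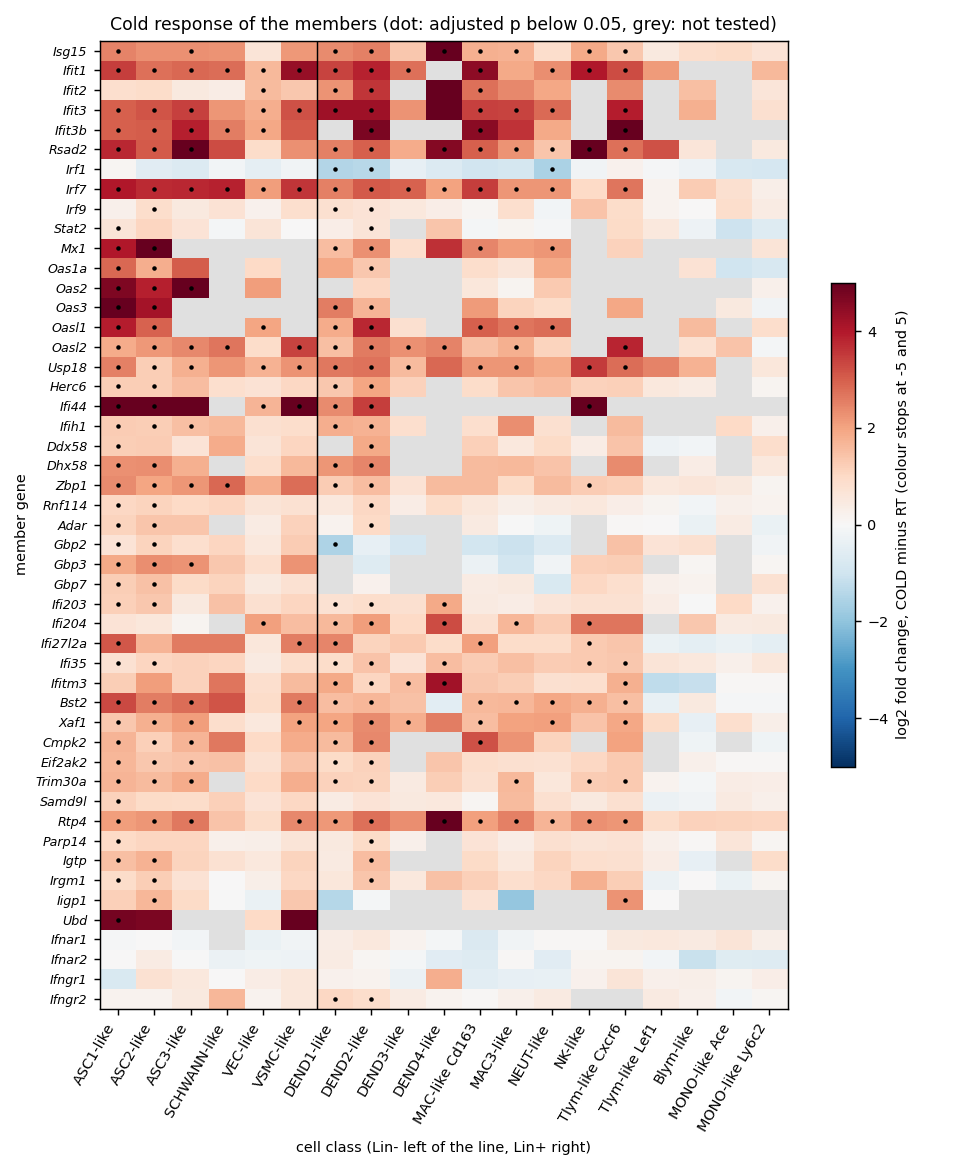
Log2 fold change of each member between COLD and RT in each of the 19 tested classes, as a colour that stops at -5 and 5, with a dot where the adjusted p was under 0.05 and grey where a pair was not tested. The columns of ASC1-like and DEND2-like cells hold the most dots, and the columns of Blym-like, Tlym-like Lef1 and both MONO-like classes hold no call.

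The transcription factor genes were Irf7, which amplifies type I interferon production, Irf9 and Stat2, which belong to ISGF3, and Irf1, an early target of type II interferon. Of their 74 pairs, 19 rose and 3 fell in cold, where 1.6% of all pairs of a class and a gene were called higher. Irf7 rose in 14 of 19 classes, more than any other member. In ASC1-like cells it was at 25.4 and 38.03 CPM at RT, 453 and 446 CPM in cold and 110 and 71.1 CPM with CL. In VEC-like cells it was at 106 and 154 CPM at RT, 568 and 521 CPM in cold and 155 and 142 CPM with CL. In both classes the 2 cold libraries stood apart from the other 4, with a log2 fold change 3.99 ± 0.28 (SE), adjusted p = 0.00026 in ASC1-like and a log2 fold change 2.11 ± 0.22 (SE), adjusted p = 0.034 in VEC-like cells. In DEND2-like cells Irf7 was at 45.4 and 70.5 CPM at RT, 497 and 604 CPM in cold and 150.4 and 148 CPM with CL (log2 fold change 3.07 ± 0.25 (SE), adjusted p = 0.00043). Tlym-like Cxcr6 cells had it at 16.9 and 43.03 CPM at RT, 244 and 229.7 CPM in cold and 48.8 and 51.3 CPM with CL (log2 fold change 2.67 ± 0.31 (SE), adjusted p = 0.0045). In Blym-like cells it was at 15.1 and 24.1 CPM at RT, 63.6 and 47.6 CPM in cold and 53.5 and 30.3 CPM with CL and was not called (log2 fold change 1.28 ± 0.29 (SE), adjusted p = 0.093).

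Irf1 went the other way. It was called higher in 0 of 19 classes, was called lower in DEND1-like, DEND2-like and NEUT-like cells, where 3.51%, 8.88% and 0.973% of all genes were called lower, and had a positive fold change in 2 classes. In DEND2-like cells Irf1 was at 141 and 174 CPM at RT, 64.8 and 71.1 CPM in cold and 92.2 and 116 CPM with CL (log2 fold change -1.38 ± 0.22 (SE), adjusted p = 0.0054). In ASC1-like cells it was at 158 and 138 CPM at RT, 162 and 143 CPM in cold and 152 and 174 CPM with CL (log2 fold change 0.11 ± 0.30 (SE), adjusted p = 0.84). The libraries of the 3 groups lay close together in ASC1-like cells. Irf1 was at 338 and 353 CPM at RT, 293 and 211 CPM in cold and 207 and 219 CPM with CL in VEC-like cells (-0.46 ± 0.25 (adjusted p = 0.59)). It was at 115 and 119 CPM at RT, 155 and 162 CPM in cold and 68.98 and 92.5 CPM with CL in Tlym-like Cxcr6 cells (0.21 ± 0.24 (adjusted p = 0.79)). It was at 70.5 and 108 CPM at RT, 85.6 and 87.4 CPM in cold and 112 and 80.6 CPM with CL in Blym-like cells (-0.24 ± 0.21 (adjusted p = 0.68)). None of these 3 was called. Irf9 rose in 3 of 19 classes and Stat2 in 2 of 17.

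**Figure D3:**
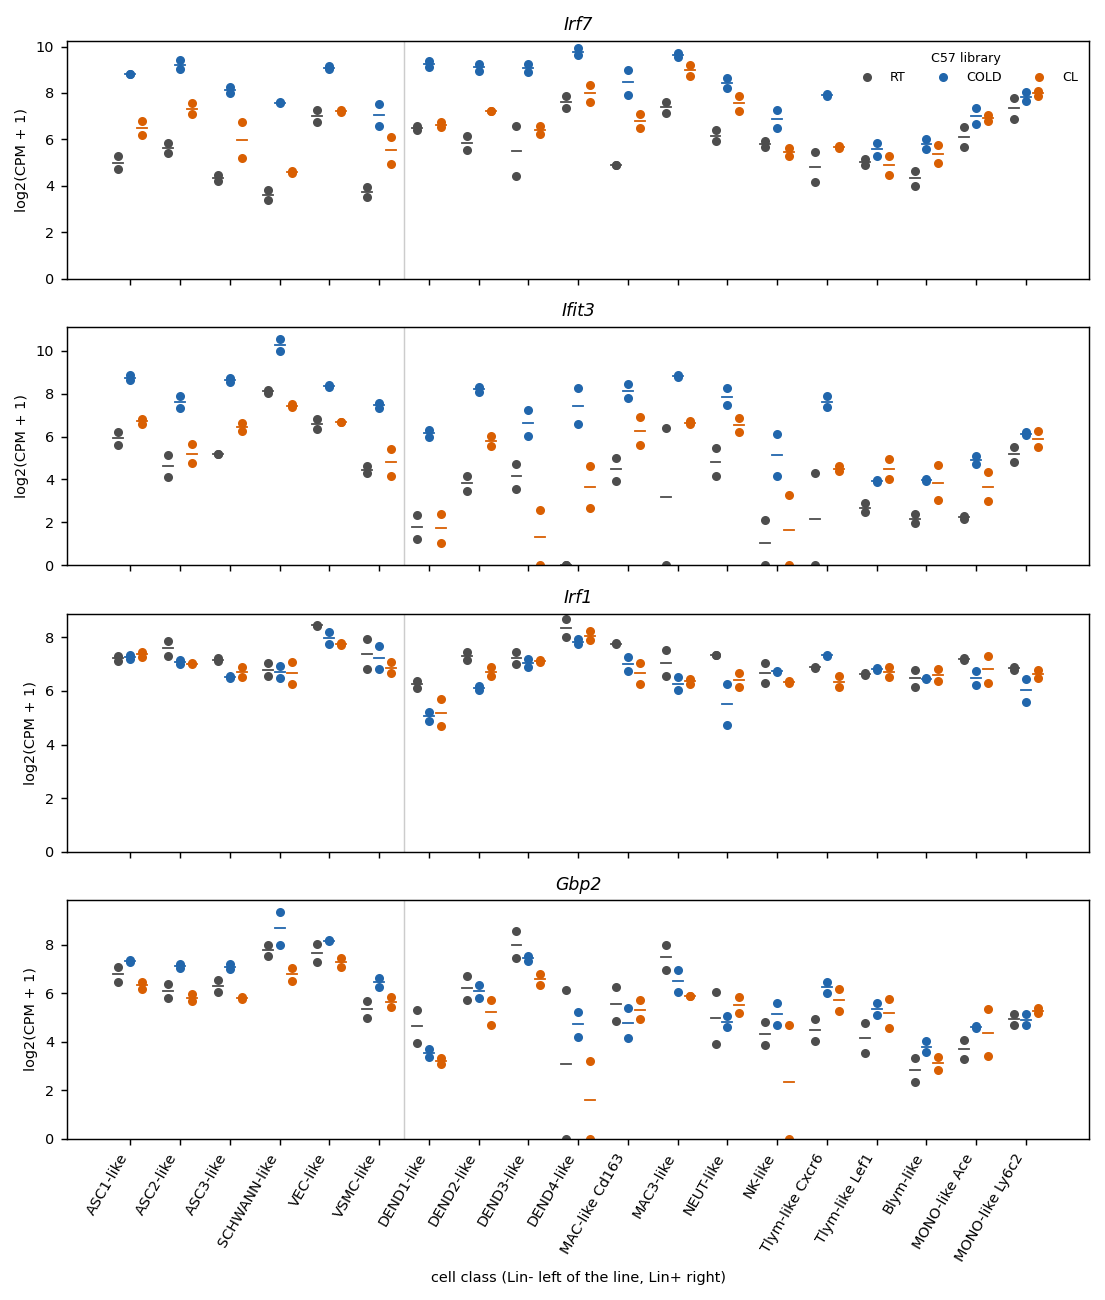
Levels of Irf7, Ifit3, Irf1 and Gbp2 as log2(CPM + 1) in each C57 library, with 1 point per library and a short line at the mean of the 2. Irf7 and Ifit3 lie higher in both cold libraries than in both RT libraries of each of the 6 tested Lin- classes, Irf1 does so in none of these, and Gbp2 in all of these but SCHWANN-like cells.

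Antiviral effectors were the group with most calls: 146 of 301 pairs rose and 0 fell in cold (1.6% of all pairs rose). Ifit1 rose in 13 of 16 classes, Rtp4 in 12 of 19, and Ifit3, Rsad2, Bst2 and Oasl2 in 11 classes each. The largest fold changes in ASC1-like cells were those of Ifi44, an interferon-induced cytosolic protein gene, and of genes that were nearly silent at RT. Ifi44 was at 0.859 and 1.73 CPM at RT, 75 and 88.2 CPM in cold and 13.04 and 6.44 CPM with CL (log2 fold change 6.22 ± 0.34 (SE), adjusted p = 9.1e-05), from 7 and 4 UMIs at RT. Oas3, which makes the second messenger that activates RNase L, was at 0.492 and 0 CPM at RT, 14.7 and 15.2 CPM in cold and 2.25 and 1.59 CPM with CL, from 4 and 0 UMIs at RT (log2 fold change 5.23 ± 0.51 (SE), adjusted p = 0.0008). Its sister gene Oas2 was at 0.738 and 1.73 CPM at RT, 23.7 and 27.7 CPM in cold and 12.03 and 8.26 CPM with CL (log2 fold change 4.68 ± 0.32 (SE), adjusted p = 0.00026). All 3 were higher in both cold libraries than in the other 4. Mx1, a GTPase gene, was at 1.11 and 2.66 CPM at RT, 24.3 and 24.2 CPM in cold and 3.93 and 0.866 CPM with CL (log2 fold change 4.01 ± 0.44 (SE), adjusted p = 0.0012). Oasl1 was at 2.21 and 2.66 CPM at RT, 36.2 and 35.7 CPM in cold and 8.64 and 4.32 CPM with CL (log2 fold change 3.94 ± 0.29 (SE), adjusted p = 0.00026). Ifit1, which binds foreign RNA caps, was at 35.8 and 47.2 CPM at RT, 352 and 478 CPM in cold and 114 and 115 CPM with CL (log2 fold change 3.47 ± 0.31 (SE), adjusted p = 0.00053). The CL libraries lay between the RT and the cold libraries for Ifit1, and for Mx1 they overlapped the RT libraries.

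Ifit3 and Rsad2, which encodes viperin, were followed in all 5 classes. Ifit3 has a near-identical copy, Ifit3b, and how reads were split between them is uncertain, as only uniquely aligned reads are counted. In ASC1-like cells Ifit3 was at 48.2 and 72.6 CPM at RT, 394 and 463 CPM in cold and 111 and 95.6 CPM with CL (log2 fold change 3.00 ± 0.26 (SE), adjusted p = 0.00053). In DEND2-like cells it was at 10.2 and 16.7 CPM at RT, 273 and 321 CPM in cold and 45.9 and 64.6 CPM with CL (log2 fold change 4.25 ± 0.32 (SE), adjusted p = 0.0004). In VEC-like cells it was at 81.2 and 112 CPM at RT, 316 and 341 CPM in cold and 102 and 100.3 CPM with CL (log2 fold change 1.80 ± 0.19 (SE), adjusted p = 0.034). The cold libraries were the highest in each class, and at RT the level was higher in VEC-like than in DEND2-like cells. In Tlym-like Cxcr6 cells Ifit3 was at 0 and 18.7 CPM at RT, 163 and 239.5 CPM in cold and 23.5 and 19.8 CPM with CL (log2 fold change 3.94 ± 0.52 (SE), adjusted p = 0.011), from 0 and 17 UMIs at RT. In Blym-like cells Ifit3 was at 2.91 and 4.24 CPM at RT, 15.3 and 14.4 CPM in cold and 24.2 and 7.14 CPM with CL and was not called (log2 fold change 1.77 ± 0.60 (SE), adjusted p = 0.29). Rsad2 was at 11.6 and 11.8 CPM at RT, 142 and 168 CPM in cold and 41.6 and 18.3 CPM with CL in ASC1-like cells (log2 fold change 3.77 ± 0.33 (SE), adjusted p = 0.00053). It was at 19.5 and 26.7 CPM at RT, 209 and 208 CPM in cold and 53.9 and 57.4 CPM with CL in DEND2-like cells (log2 fold change 2.97 ± 0.22 (SE), adjusted p = 0.0004). Both cold libraries were the highest in each of these classes. In VEC-like cells Rsad2 was at 262 and 399 CPM at RT, 691 and 520.4 CPM in cold and 431 and 138 CPM with CL and was not called (log2 fold change 0.91 ± 0.46 (SE), adjusted p = 0.55).

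Among Tlym-like Cxcr6 cells Rsad2 was at 6.80 and 15.4 CPM at RT, 70.8 and 122 CPM in cold and 17.7 and 24.7 CPM with CL (log2 fold change 2.77 ± 0.42 (SE), adjusted p = 0.014). In Blym-like cells Rsad2 was at 0.579 and 7.99 CPM at RT, 9.98 and 5.58 CPM in cold and 16.1 and 6.01 CPM with CL and was not called (log2 fold change 0.61 ± 0.82 (SE), adjusted p = 0.8). Further effectors with the largest changes in DEND2-like cells were Ifit1 at 5.56 and 12.1 CPM at RT, 132 and 169 CPM in cold and 44.2 and 39.7 CPM with CL (3.84 ± 0.29 (adjusted p = 0.0004)), Ifit2, Ifit3b, Oasl1 and Ifi44. Ifit2, which like Ifit1 binds viral RNA, was at 2.80 and 10.1 CPM at RT, 89.3 and 98.1 CPM in cold and 23.8 and 14.2 CPM with CL (3.58 ± 0.34 (adjusted p = 0.00077)). Oasl1, a 2′-5′ oligoadenylate synthetase-like gene, was at 4.68 and 3.99 CPM at RT, 64.8 and 68.3 CPM in cold and 20.7 and 16.1 CPM with CL (3.77 ± 0.26 (adjusted p = 0.0004)). For these 3 both cold libraries lay above the other 4. Ifi44 was at 0 and 2.01 CPM at RT, 9.29 and 20.3 CPM in cold and 4.16 and 2.84 CPM with CL in DEND2-like cells and was called, with no fold given as the RT libraries held 0 and 3 UMIs. Ifit3b was at 1.87 and 1.34 CPM at RT, 45.1 and 49.3 CPM in cold and 8.90 and 9.47 CPM with CL (4.72 ± 0.37 (adjusted p = 0.0004)), from 2 UMIs in each RT library. In VEC-like cells Oasl1 was at 9.17 and 19.1 CPM at RT, 56.7 and 46.3 CPM in cold and 20.9 and 15.1 CPM with CL (1.98 ± 0.28 (adjusted p = 0.045)). Ifit3b was at 20.3 and 14.6 CPM at RT, 78.01 and 66.4 CPM in cold and 20.03 and 16.6 CPM with CL (1.95 ± 0.27 (adjusted p = 0.04)). The values with CL lay close to those at RT for both.

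In Tlym-like Cxcr6 cells, where sums were small, Ifit1 was at 13.7 and 18.8 CPM at RT, 151 and 227 CPM in cold and 17.1 and 14.8 CPM with CL (3.26 ± 0.32 (adjusted p = 0.0015)). Oasl2 was at 1.69 and 3.29 CPM at RT, 53.4 and 38.4 CPM in cold and 5.94 and 19.7 CPM with CL (3.79 ± 0.62 (adjusted p = 0.019)), from 1 and 3 UMIs at RT. Ifit3b was at 1.72 and 0 CPM at RT, 24.2 and 67.99 CPM in cold and 0 and 2.48 CPM with CL and was called, with no fold given as the RT libraries held 1 and 0 UMIs. The 2 cold libraries were highest for each. In DEND4-like cells, the calls rested on few RT counts for some members. Rtp4, a chaperone-like gene of the interferon response, was at 0 UMIs in both RT libraries and at 92.6 and 112 CPM in cold, and at 13.9 and 5.38 CPM with CL. Ifitm3, which hinders viral entry at membranes, was at 113 and 209 CPM at RT, 3492 and 3223 CPM in cold and 348 and 449.8 CPM with CL (log2 fold change 4.21 ± 0.36 (SE), adjusted p = 0.00034). In NK-like cells Rsad2 was at 0 UMIs in both RT libraries and at 38.6 and 59.7 CPM in cold, and at 8.03 and 6.05 CPM with CL.

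Irf7 and antiviral effectors rose also in the other stromal classes. Irf7 was at 41.1 and 56.3 CPM at RT, 527 and 675 CPM in cold and 189 and 135 CPM with CL in ASC2-like cells (log2 fold change 3.73 ± 0.30 (SE), adjusted p = 0.0022). In ASC3-like cells Irf7 was at 21.1 and 17.3 CPM at RT, 309 and 256 CPM in cold and 105 and 35.8 CPM with CL (log2 fold change 3.79 ± 0.41 (SE), adjusted p = 0.0015) and Ifit3 at 36.02 and 35.6 CPM at RT, 425 and 377 CPM in cold and 99.6 and 76.5 CPM with CL (3.43 ± 0.33 (adjusted p = 0.00073)). The cold libraries were the highest in each, and CL 1 lay above CL 2. In VSMC-like cells, the mural cells of vessels, Ifit1 was at 6.90 and 13.2 CPM at RT, 185 and 172 CPM in cold and 26.4 and 19.1 CPM with CL (log2 fold change 4.34 ± 0.26 (SE), adjusted p = 0.00013) and Bst2 at 58.8 and 45.9 CPM at RT, 337 and 278 CPM in cold and 253 and 141 CPM with CL (2.60 ± 0.36 (adjusted p = 0.024)). SCHWANN-like cells, the glia of peripheral nerves, had Ifit1 at 126 and 104 CPM at RT, 640.4 and 999 CPM in cold and 219 and 98.1 CPM with CL (log2 fold change 2.78 ± 0.53 (SE), adjusted p = 0.024) and Oasl2 at 14.4 and 55.5 CPM at RT, 186 and 223 CPM in cold and 72.8 and 46.1 CPM with CL (2.67 ± 0.46 (adjusted p = 0.012)). The level of Ifit1 was higher in SCHWANN-like than in VSMC-like cells in all 6 C57 libraries.

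Among the myeloid classes, DEND1-like cells had Irf7 at 84.1 and 93.4 CPM at RT, 555 and 665 CPM in cold and 106 and 91.2 CPM with CL (log2 fold change 2.51 ± 0.21 (SE), adjusted p = 0.00037) and Usp18 at 25.1 and 20.6 CPM at RT, 149 and 206 CPM in cold and 19.6 and 32.4 CPM with CL (2.65 ± 0.29 (adjusted p = 0.001)), with CL libraries close to those at RT. MAC-like Cd163 cells had Ifit1 at 2.88 and 9.67 CPM at RT, 162 and 171 CPM in cold and 69.6 and 18.3 CPM with CL (log2 fold change 4.46 ± 0.54 (SE), adjusted p = 0.0023) and Cmpk2, a mitochondrial nucleotide kinase gene next to Rsad2, at 7.24 and 7.28 CPM at RT, 37.7 and 121 CPM in cold and 25.2 and 12.7 CPM with CL (3.19 ± 0.50 (adjusted p = 0.0093)). The Cmpk2 level differed between the 2 cold libraries, and COLD 2 was the highest. MAC3-like cells had Rtp4 at 65.6 and 124 CPM at RT, 579 and 575 CPM in cold and 353 and 357 CPM with CL (log2 fold change 2.53 ± 0.32 (SE), adjusted p = 0.0066) and Irf7 at 140.4 and 197 CPM at RT, 836 and 757 CPM in cold and 428 and 585 CPM with CL (2.20 ± 0.32 (adjusted p = 0.015)), and NEUT-like cells had Ifit3 at 17.1 and 42.6 CPM at RT, 304 and 176 CPM in cold and 117 and 72.6 CPM with CL (log2 fold change 2.84 ± 0.39 (SE), adjusted p = 0.0023). The CL libraries lay between those at RT and in cold for these 3.

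Of the ubiquitin-like pathway members, 37 of 95 pairs rose and 0 fell in cold, against 1.6% of all pairs that rose. Isg15 rose in 9 of 19 classes and its protease gene Usp18 in 12 of 18. Isg15 was at 178 and 179 CPM at RT, 957 and 919 CPM in cold and 397 and 289 CPM with CL in ASC1-like cells (log2 fold change 2.49 ± 0.43 (SE), adjusted p = 0.0079). It was at 104 and 135 CPM at RT, 808 and 716 CPM in cold and 235 and 197 CPM with CL in DEND2-like cells (log2 fold change 2.50 ± 0.21 (SE), adjusted p = 0.00043). Both had CL libraries between those at RT and in cold. Tlym-like Cxcr6 cells had Isg15 at 169 and 152 CPM at RT, 535 and 418 CPM in cold and 159.5 and 77.7 CPM with CL (log2 fold change 1.35 ± 0.25 (SE), adjusted p = 0.037). In VEC-like cells Isg15 was at 477 and 419 CPM at RT, 724 and 702 CPM in cold and 483 and 389.8 CPM with CL and was not called (log2 fold change 0.66 ± 0.31 (SE), adjusted p = 0.53). In Blym-like cells it was at 16.02 and 15.7 CPM at RT, 40.3 and 28.2 CPM in cold and 70.4 and 21.9 CPM with CL and was not called (log2 fold change 0.89 ± 0.42 (SE), adjusted p = 0.43). Ubd, which encodes the ubiquitin-like modifier FAT10, was at 6.14 and 4.43 CPM at RT, 140.2 and 169 CPM in cold and 52.3 and 18.3 CPM with CL in ASC1-like cells (4.79 ± 0.45 (adjusted p = 0.00076)). Usp18 was at 14.01 and 30.7 CPM at RT, 161 and 185 CPM in cold and 44.9 and 37.6 CPM with CL in DEND2-like cells. It was at 36.7 and 58.4 CPM at RT, 152 and 156 CPM in cold and 52.2 and 48.5 CPM with CL in VEC-like cells (1.75 ± 0.18 (adjusted p = 0.034)). Among Tlym-like Cxcr6 cells Usp18 was at 6.87 and 12.1 CPM at RT, 70.4 and 92.5 CPM in cold and 6.02 and 27.2 CPM with CL (2.78 ± 0.45 (adjusted p = 0.019)). In each of these the cold libraries were the highest. Herc6, the mouse ISG15 ligase gene, rose in 4 of 17 classes and Trim30a in 8 of 18.

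The nucleic acid sensors detect foreign or misplaced RNA and DNA. Of their 94 pairs, 26 rose and 0 fell (1.6% of all pairs rose). Zbp1, a sensor of Z-form nucleic acid, rose in 7 of 19 classes, Ifih1 (MDA5) and Eif2ak2 (PKR) in 5 each, Dhx58 (LGP2) in 4, Adar in 3 and Ddx58 (RIG-I) in 2. In ASC1-like cells Zbp1 was at 22.7 and 36.5 CPM at RT, 148 and 123 CPM in cold and 106 and 51.5 CPM with CL (log2 fold change 2.37 ± 0.25 (SE), adjusted p = 0.001). Its cold libraries were the highest, with CL 1 closest to them.

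The GTPases that are known as targets of type II interferon had these counts: 15 of 92 pairs rose and 1 fell, with 1.6% of all pairs called higher. Gbp2 rose in 2 of 16 classes and fell in DEND1-like cells, and its fold change was positive in 9. In ASC1-like cells Gbp2 was at 87.5 and 134 CPM at RT, 152 and 166 CPM in cold and 87.6 and 70.1 CPM with CL (log2 fold change 0.69 ± 0.18 (SE), adjusted p = 0.038). In VEC-like cells it was at 156 and 261 CPM at RT, 293 and 279 CPM in cold and 173 and 135 CPM with CL (log2 fold change 0.51 ± 0.22 (SE), adjusted p = 0.47). In DEND2-like cells it was at 52.04 and 103 CPM at RT, 55.2 and 79.4 CPM in cold and 50.9 and 24.96 CPM with CL (log2 fold change -0.40 ± 0.32 (SE), adjusted p = 0.41). Both cold libraries were the highest in ASC1-like and VEC-like cells, whereas in DEND2-like cells they lay between the 2 RT libraries. Among Tlym-like Cxcr6 cells Gbp2 was at 15.4 and 29.5 CPM at RT, 87.5 and 63.7 CPM in cold and 71.4 and 37.1 CPM with CL (1.46 ± 0.35 (adjusted p = 0.11)), which was not called. In Blym-like cells Gbp2 was at 4.07 and 8.88 CPM at RT, 10.7 and 15.1 CPM in cold and 6.12 and 9.41 CPM with CL and was not called (log2 fold change 0.82 ± 0.52 (SE), adjusted p = 0.55). Iigp1, an Irg GTPase, rose in 2 of 12 classes. It was at 236 and 286 CPM at RT, 591 and 509 CPM in cold and 195 and 234 CPM with CL in ASC1-like cells (1.20 ± 0.35 (adjusted p = 0.056)). It was at 6.75 and 10.97 CPM at RT, 53.4 and 50.3 CPM in cold and 5.95 and 4.94 CPM with CL in Tlym-like Cxcr6 cells (2.24 ± 0.41 (adjusted p = 0.036)). In both the cold libraries were the highest. It was at 639.6 and 667 CPM at RT, 607 and 433 CPM in cold and 332 and 412 CPM with CL in VEC-like cells, where it was not called (-0.33 ± 0.32 (adjusted p = 0.77)). In DEND2-like cells it was at 0.905 and 12.7 CPM at RT, 5.92 and 10.4 CPM in cold and 3.90 and 2.82 CPM with CL (-0.09 ± 0.64 (adjusted p = 0.93)). In Blym-like cells, where it was not tested, it was at 2.88 and 3.29 CPM at RT, 1.79 and 1.17 CPM in cold and 6.08 and 0.376 CPM with CL. Gbp3, Igtp and Irgm1 rose in 3 classes each and Gbp7 in 2.

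The HIN200 genes Ifi203 and Ifi204, which belong to a family of DNA-binding proteins, and Parp14, an ADP-ribosyl transferase, rose in 13 of 54 pairs (1.6% of all pairs rose). In VEC-like cells Ifi204 was at 11.8 and 12.3 CPM at RT, 45.6 and 56.3 CPM in cold and 16.5 and 18.2 CPM with CL (2.05 ± 0.26 (adjusted p = 0.036)), with both cold libraries above the other 4.

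The receptor chains carry the signal into the cell. Of 73 pairs, 2 were called, both of Ifngr2, which rose in DEND1-like and DEND2-like cells. Of all pairs 1.6% were called higher in cold, and of all genes 2.66% in DEND1-like and 7.51% in DEND2-like cells, so that nothing is read from these 2 calls. Ifnar1, Ifnar2 and Ifngr1 were called in 0 classes by edgeR, with 8 passing at an unadjusted p under 0.05 and 0 called by DESeq2. In ASC1-like cells Ifnar1 was at 33.5 and 56.7 CPM at RT, 41.3 and 34.2 CPM in cold and 39.8 and 30.1 CPM with CL (-0.07 ± 0.16 (adjusted p = 0.8)). Ifnar2 was at 97.8 and 114 CPM at RT, 98.3 and 98.05 CPM in cold and 78.6 and 80.1 CPM with CL (0.01 ± 0.20 (adjusted p = 0.98)). Both cold libraries lay within the range of those at RT for both chains. Ifngr1 was at 479.7 and 515 CPM at RT, 282 and 265 CPM in cold and 232 and 337 CPM with CL in ASC1-like cells (-0.75 ± 0.39 (adjusted p = 0.24)). Ifngr2 was at 77.6 and 124 CPM at RT, 118 and 82.5 CPM in cold and 108 and 93.8 CPM with CL (0.16 ± 0.19 (adjusted p = 0.61)). All 4 chains were thus read in every C57 library of ASC1-like cells. In VEC-like cells Ifnar1 was at 48.3 and 64.9 CPM at RT, 49.2 and 39.8 CPM in cold and 55.4 and 27.9 CPM with CL, Ifnar2 at 118 and 117 CPM at RT, 91.4 and 113 CPM in cold and 79.7 and 77.4 CPM with CL and Ifngr1 at 334 and 281 CPM at RT, 448 and 363 CPM in cold and 301 and 314 CPM with CL, with Ifngr2 at 31.3 and 46.9 CPM at RT, 40.3 and 46 CPM in cold and 38.4 and 45.6 CPM with CL. None of the 4 was called there. In DEND2-like cells Ifngr2 was at 76.97 and 47.5 CPM at RT, 139 and 116 CPM in cold and 116 and 64.1 CPM with CL (log2 fold change 0.89 ± 0.26 (SE), adjusted p = 0.046). Ifnar1 was at 37.7 and 38.1 CPM at RT, 67.02 and 54.3 CPM in cold and 56.8 and 38.4 CPM with CL (0.51 ± 0.19 (adjusted p = 0.098)), Ifnar2 at 67.8 and 68.9 CPM at RT, 87.7 and 75 CPM in cold and 73.1 and 71.9 CPM with CL (0.09 ± 0.17 (adjusted p = 0.73)) and Ifngr1 at 168 and 184 CPM at RT, 220.4 and 221 CPM in cold and 258 and 238 CPM with CL (0.16 ± 0.17 (adjusted p = 0.52)). All 4 chains were higher in both cold than in both RT libraries of DEND2-like cells, and Ifngr2 was the 1 chain that was called.

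The receptor chains were also read in B cells, in which no member was called in cold against RT. In Blym-like cells Ifnar1 was at 47.01 and 65.8 CPM at RT, 81.9 and 90.1 CPM in cold and 58.7 and 71.8 CPM with CL, Ifnar2 at 27.6 and 26.3 CPM at RT, 8.75 and 17.1 CPM in cold and 12 and 24.4 CPM with CL and Ifngr1 at 88.6 and 90.5 CPM at RT, 135 and 117 CPM in cold and 108 and 100.3 CPM with CL. Ifngr2 was at 39.1 and 42.2 CPM at RT, 61.4 and 49.8 CPM in cold and 57.9 and 35.6 CPM with CL there. In these cells both cold libraries lay below both RT libraries for Ifnar2. They lay above both RT libraries for Ifnar1, Ifngr1 and Ifngr2, and no chain was called. In Tlym-like Cxcr6 cells Ifnar1 was at 66.4 and 79.2 CPM at RT, 135 and 107 CPM in cold and 46.8 and 66.7 CPM with CL, Ifnar2 at 36.9 and 56.2 CPM at RT, 63.5 and 58.05 CPM in cold and 73.5 and 27.03 CPM with CL and Ifngr1 at 558 and 438 CPM at RT, 1051 and 805 CPM in cold and 490 and 402 CPM with CL. Ifngr2 was at 16.7 and 11.6 CPM at RT, 17.6 and 11 CPM in cold and 33.9 and 12.3 CPM with CL there. A difference in receptor level between classes was not tested.

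The cells that carry interferon transcripts were counted over all 20 libraries, a cell counting with at least 0.5 of a corrected UMI. Ifng was found in 1959 cells, 1648 of them Lin+. Most lay in 3 groups: 707 of 2401 Tlym-like Cxcr6 cells, 504 of 1663 NK-like cells and 284 of 990 cells of an unnamed Lin- cluster led by Nkg7, Gzma and Cd3g. The share of Tlym-like Cxcr6 cells with Ifng was 27.1% and 37.9% at RT, 18.9% and 38.4% in cold and 28.3% and 26.7% with CL. The share of NK-like cells was 13.9% and 33.4% at RT, 28.4% and 34.2% in cold and 25.6% and 31.5% with CL. Neither order followed the treatment, since the lowest and the highest cold library of Tlym-like Cxcr6 cells spanned those at RT. In ASC1-like cells, a stromal class that should lack Ifng, the share was 0% to 0.0671% over these libraries at median depths of 1540.1 to 5292 UMIs, against 1232 to 2830.3 UMIs in Tlym-like Cxcr6 cells. Thinned to 1000 UMIs per cell, the shares of Tlym-like Cxcr6 cells were 20.5% and 21.8% at RT, 10.7% and 28.7% in cold and 24.3% and 16.3% with CL, with 2 to 76 cells left out per library.

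As a level, Ifng in Tlym-like Cxcr6 cells was at 393 and 309 CPM at RT, 272 and 517 CPM in cold and 294 and 226 CPM with CL (log2 fold change -0.06 ± 0.31 (SE), adjusted p = 0.96 for cold against RT). In NK-like cells it was at 101 and 321 CPM at RT, 246 and 298 CPM in cold and 390.4 and 329.7 CPM with CL (log2 fold change 0.17 ± 0.32 (SE), adjusted p = 0.84). The libraries of the groups overlapped in both classes, and RT 1 was the lowest among NK-like cells. Ifng had too few counts for a test in the other 17 classes. Its highest level in a C57 library was 5.11 CPM in DEND2-like cells, 4.12 CPM in Blym-like cells, 0.861 CPM in VEC-like cells and 0.431 CPM in ASC1-like cells. Ifnb1 was found in 31 cells, 9 of them DEND2-like and 5 MAC3-like, and was tested in no class. It was at 0 UMIs in all C57 libraries of ASC1-like, VEC-like and Blym-like cells, and at 0 to 3 UMIs in each C57 library of DEND2-like cells. Of 13 Ifna genes, Ifna2 was found in 3 cells, Ifna7 in 1 cell and the others in 0 cells. Of the other type I genes, Ifnz was found in 25 cells, Ifnab in 18, Ifnk in 7 and Ifne in 1, and Ifnl2 of type III in 1. A 3′ tag method at this depth may miss genes that few cells transcribe, so absence cannot be read from these counts. The type III receptor gene Ifnlr1 was found in 165 cells, 57 of them among 614 EPI-like (epithelial) cells and 36 NEUT-like. EPI-like cells were found in the female Adrb1 line alone, with 0 in each C57 library.

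**Figure D4:**
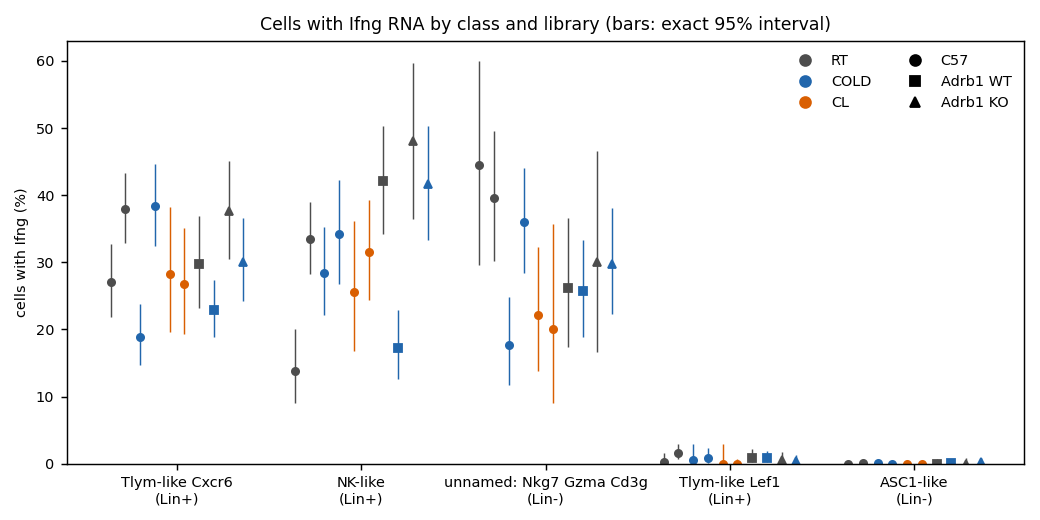
Percent of cells with Ifng in each library, for the classes that hold most such cells, with 95% exact binomial intervals that cover counting error only. Points of the 3 treatments overlap within Tlym-like Cxcr6 and NK-like cells, and the Tlym-like Lef1 and ASC1-like points lie near 0.

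The next comparison asks whether stimulation of β3-adrenergic receptors with CL moved the same genes at RT. CL raised 12 of 785 pairs and lowered 0, where 0.329% of all pairs of a class and a gene were called. Called or not, the fold change with CL was positive in 19 of 19 classes for Rtp4, 17 for Irf7 and 16 for Isg15. For Irf1 it was positive in 1 of 19. Both comparisons use the same RT libraries. The 12 were 7 of 49 in ASC1-like cells (background 1.1%, 13 with the replicate block, 1 without RT 2, 4 without RT 1 or CL 1, 2 by the nearest centroid), 3 of 48 in DEND2-like cells (background 0.524%, 8 with the replicate block, 0 without RT 1, 1 without RT 2, 7 without CL 2, 0 by the nearest centroid), 1 of 47 in MAC-like Cd163 cells (background 0.229%, 5 with the replicate block, 0 without RT 1, 15 without CL 2) and 1 of 46 in NEUT-like cells (background 0.216%, 5 with the replicate block, 0 without RT 1, 2 without RT 2, 13 without CL 2, 0 by the nearest centroid). Without the shared barcodes, 3 members were called in ASC1-like cells. The 7 in ASC1-like cells were Oas2, Ifi44, Ubd, Irf7, Ifit1, Usp18 and Zbp1, whose values by library are given above for all but Usp18. Usp18 was at 16.4 and 24.9 CPM at RT, 96.2 and 112 CPM in cold and 35.95 and 29.7 CPM with CL in ASC1-like cells (0.93 ± 0.18 (adjusted p = 0.039)). Oas2 had a log2 fold change 3.41 ± 0.36 (SE), adjusted p = 0.0042. Ifi44 had a log2 fold change 3.17 ± 0.40 (SE), adjusted p = 0.0066, and Ubd a log2 fold change 2.66 ± 0.46 (SE), adjusted p = 0.022. Irf7 rose by a log2 fold change 1.75 ± 0.26 (SE), adjusted p = 0.012, Ifit1 by a log2 fold change 1.72 ± 0.29 (SE), adjusted p = 0.021 and Zbp1 by a log2 fold change 1.64 ± 0.25 (SE), adjusted p = 0.016. Both CL libraries lay above both RT libraries for each of these 7. In DEND2-like cells Ifit1, Oasl1 and Ifit3 were called (2.04 ± 0.32 (adjusted p = 0.029), 1.94 ± 0.32 (adjusted p = 0.032) and 1.88 ± 0.34 (adjusted p = 0.043)). In MAC-like Cd163 cells Irf7 was called, at 29.2 and 29.2 CPM at RT, 242 and 506 CPM in cold and 136 and 87.7 CPM with CL (1.81 ± 0.32 (adjusted p = 0.027)). In NEUT-like cells Rtp4 was called, at 76.4 and 135 CPM at RT, 357 and 372 CPM in cold and 414 and 282 CPM with CL (1.71 ± 0.30 (adjusted p = 0.032)). Both CL libraries lay above both RT libraries in these classes, and in NEUT-like cells they overlapped the cold libraries. No member was called with CL by edgeR in VEC-like or Tlym-like Cxcr6 cells (background 0.0% and 0.0%), where 2 and 4 passed at an unadjusted p under 0.05 and DESeq2 called 0 and 0.

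Cold was set against CL directly. Of 785 pairs, 91 were higher and 1 lower in cold, where 0.378% of all pairs were called, and the count was 157 with the replicate block, 52 without COLD 1 and 22 without COLD 2. This comparison shares its cold libraries with that of cold against RT. Most calls were in 3 classes: 21 of 49 in ASC1-like cells (background 0.393%, 4 without COLD 2, 10 without CL 2, 11 without COLD 1, 11 by the nearest centroid), 17 of 48 in DEND2-like cells (background 0.753%, 28 with the replicate block, 1 without COLD 2, 9 without COLD 1, 4 by the nearest centroid) and 14 of 43 in DEND1-like cells (background 0.497%, 9 without COLD 2 or CL 2, 1 by the nearest centroid). In ASC2-like and ASC3-like cells, 4 and 6 were called (background 0.0456% and 0.139%), and 25 and 18 with the replicate block. In ASC1-like cells the largest differences were those of Mx1 (3.47 ± 0.42 (adjusted p = 0.01)), Ifi44 (3.05 ± 0.25 (adjusted p = 0.003)) and Oas3 (2.89 ± 0.39 (adjusted p = 0.012)), followed by Oasl1 (2.45 ± 0.25 (adjusted p = 0.0069)), Rsad2 (2.34 ± 0.30 (adjusted p = 0.01)) and Irf7 (2.23 ± 0.25 (adjusted p = 0.01)), all on the log2 scale with SE. In DEND2-like cells they were those of Ifit3 (2.37 ± 0.26 (adjusted p = 0.0071)), Ifit3b (2.31 ± 0.23 (adjusted p = 0.0053)) and Ifit2 (2.29 ± 0.26 (adjusted p = 0.0075)), followed by Usp18, Rsad2 and Irf7. In Tlym-like Cxcr6 cells Ifit1, Xaf1, Irf7, Isg15 and Bst2 were called (background 0.109%): Xaf1, an apoptosis-linked gene, was at 18.8 and 36.9 CPM at RT, 129.9 and 129.8 CPM in cold and 29.2 and 22.1 CPM with CL and Bst2, which tethers budding virions, at 135 and 169 CPM at RT, 525 and 479 CPM in cold and 196 and 119 CPM with CL. The pair that was lower in cold was Ifitm3 in Blym-like cells (background 0.161%), at 50.3 and 56.8 CPM at RT, 43.3 and 15.2 CPM in cold and 112 and 119 CPM with CL (log2 fold change -2.23 ± 0.32 (SE), adjusted p = 0.0064), which had both CL libraries above the other 4.

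Whether 2 classes differed in their response to cold was tested with a term for class by treatment. Against ASC1-like cells, the log2 fold change between COLD and RT was lower in VEC-like cells for 17 members and higher for 1, of 49 tested, where 4.11% of all genes differed. Of these, Ifi44 differed by -4.43 ± 0.35 (SE, adjusted p = 0.00042), Ubd by -3.76 ± 0.37 (SE, adjusted p = 0.00081) and Rsad2 by -2.83 ± 0.37 (SE, adjusted p = 0.0027) on the log2 scale, and Ifi204 was the member with the higher fold change, by 1.44 ± 0.30 (SE, adjusted p = 0.025). The stromal classes differed less by count: ASC2-like cells in 2 members upwards and 3 downwards (background 8.19%), ASC3-like cells in 1 and 2 (background 9.51%) and VSMC-like cells in 2 and 1 (background 6.11%, and 1 in all at equal depth). The fold change of Ifngr1, which was negative but not called in ASC1-like cells, was higher in all 3, by 1.57 ± 0.21 (SE, adjusted p = 0.00056) in ASC2-like cells.

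Against Blym-like cells, the fold change was higher in DEND2-like cells for 16 members and lower for 1, where 2.95% of all genes differed. With sums thinned to equal depth, the numbers were 8 and 1. Xaf1 differed by 2.80 ± 0.38 (SE, adjusted p = 9.0e-05), Ifitm3 by 2.26 ± 0.33 (SE, adjusted p = 0.00018) and Irf7 by 1.79 ± 0.33 (SE, adjusted p = 0.002). The member with the lower fold change was Irf1, which fell in DEND2-like cells and was not called in Blym-like cells, by -1.14 ± 0.25 (SE, adjusted p = 0.01). DEND1-like cells differed in 10 members (background 1.64%), DEND3-like cells in 4 (1.49%), DEND4-like cells in 9 (1.28%), MAC3-like cells in 6 (1.37%), MAC-like Cd163 cells in 5 (1.57%), NEUT-like and NK-like cells in 4 each (0.903% and 0.652%) and MONO-like Ace cells in 1 (0.424%). In DEND1-like cells the fold change was lower than in Blym-like cells for 2 of these members, Irf1 and Gbp2. In DEND4-like cells it was lower for 1, Bst2, and for all the others it was higher. At equal depth the count was 2 in DEND3-like, 3 in DEND4-like, 2 in MAC3-like, 2 in NEUT-like and 0 in MONO-like Ace cells. Among Tlym-like Cxcr6 cells, the fold changes of Ifi27l2a, Ifitm3 and Xaf1 were higher than in Blym-like cells, Ifitm3 by 2.91 ± 0.38 (SE, adjusted p = 0.00068) (background 0.095%). MONO-like Ly6c2 and Tlym-like Lef1 cells, which like Blym-like cells had no called member in cold against RT, differed from Blym-like cells in 0 members by edgeR (background 0.166% and 0.209%), with 5 and 4 at an unadjusted p under 0.05.

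Single cells were read to see how many held a high sum of the stimulated members. Each cell was thinned to 1000 UMIs, and cells with at least 10 UMIs of stimulated members were counted. In ASC1-like cells their share was 9% and 9.86% at RT, 57.1% and 66.2% in cold and 28.3% and 23.5% with CL. In DEND2-like cells it was 10.2% and 15.2% at RT, 56.95% and 65.6% in cold and 28.2% and 33.6% with CL. In both classes the groups did not overlap. In VEC-like cells the share was 28.7% and 33.1% at RT, 52.97% and 52.9% in cold and 36.5% and 31.2% with CL. In Tlym-like Cxcr6 cells it was 1.57% and 4.18% at RT, 28% and 26.2% in cold and 5.71% and 3.88% with CL. In Blym-like cells it did not exceed 1.96% in a C57 library. At RT the share was higher in VEC-like cells than in the other 4 classes, a difference that was not tested. The mean share at RT was 30.9% in VEC-like cells. Outside these classes it was 60.2% in MONO-like Ly6c2, 30.4% in MAC3-like and 28.3% in DEND4-like cells. In MONO-like Ly6c2 cells, where no member was called in cold against RT, the mean share in cold was 63.3%. A high share thus need not mark a response to cold. With any UMI of a stimulated member and no thinning, the share in ASC1-like cells was 99.8% and 95.6% at RT, 99.7% and 99.6% in cold and 97.6% and 99.4% with CL, where depth differed between libraries. Thinning left out 33 to 224 cells per library of ASC1-like cells and 75 to 4263 of VEC-like cells, many of them in C57 CL 1.

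**Figure D5:**
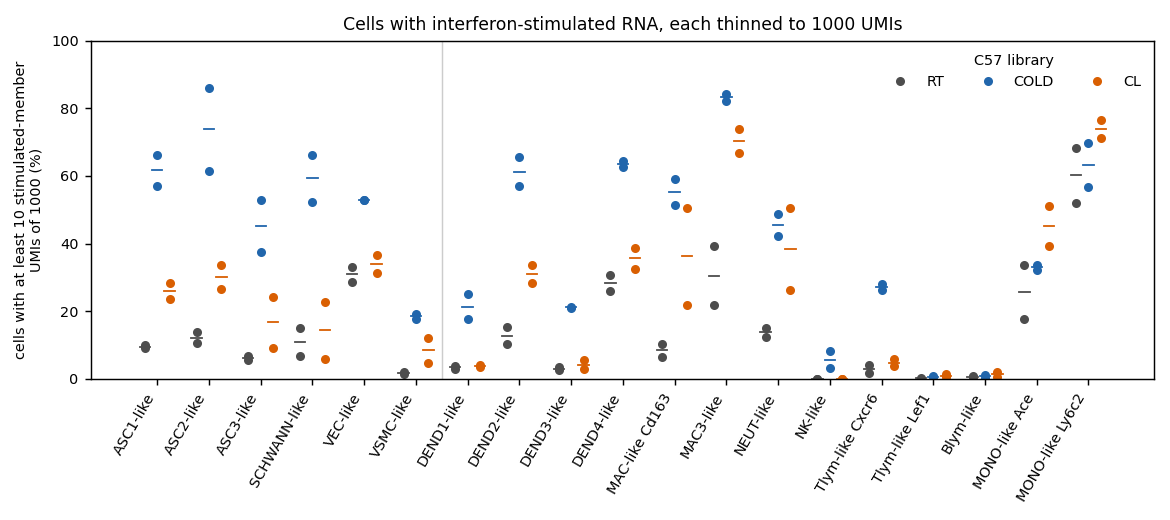
Percent of cells with at least 10 UMIs of stimulated members after thinning to 1000 UMIs, with 1 point per C57 library and a short line at the mean of the 2. Cold points lie above RT and CL points in ASC1-like, DEND2-like, VEC-like and Tlym-like Cxcr6 cells and stay near 0 in Blym-like cells.

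In the female Adrb1 line each group was 1 library per fraction, so differences have no replicate check and no test. Members with at least 20 UMIs in the pair of libraries were counted as higher at 2-fold or more. In ASC1-like cells, 22 of 49 members were higher in WT COLD than in WT RT (background 16.8% of genes), and 31 of 49 members were higher in KO COLD than in KO RT (background 15.3%). Kit and day differ in both of these pairs. The summed stimulated members of ASC1-like cells were 5364 CPM in WT RT, 8787 CPM in WT COLD, 4948 CPM in KO RT and 16669 CPM in KO COLD. Irf7 was at 28.2 and 127 CPM in WT RT and WT COLD and 26.2 and 386 CPM in KO RT and KO COLD. Rsad2 was at 12.6 and 71.8 CPM in WT RT and WT COLD and 11.2 and 294 CPM in KO RT and KO COLD. The KO COLD library was the highest of the 4 for both.

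The KO COLD and WT COLD libraries were made with the same kit. Members were higher in KO COLD at 2-fold or more in 26 of 49 members of ASC1-like cells (background 1.26%), 8 of 49 members of ASC2-like cells (0.75%), 27 of 48 members of DEND2-like cells (2.65%) and 32 of 49 members of MAC3-like cells (2.75%). In Blym-like cells the count was 3 of 39 members (1.23%) and in VEC-like cells 3 of 47 members (1.56%). The higher values were read in classes of both the Lin- and the Lin+ library. The share of members stood above that of all genes in each class listed, Blym-like and VEC-like cells included. The cause of the higher values was not tested. In DEND2-like cells Irf7 was at 35.5 and 212 CPM in WT RT and WT COLD and 13.9 and 706 CPM in KO RT and KO COLD. With 1 pool of mice per group, genotype and pool cannot be told apart. At RT, members higher in KO than in WT at 2-fold or more numbered 0 of 43 in ASC1-like cells (background 1.5%).

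Other genes of the pathway were read from a second list that holds no member, 56 of them interferon-stimulated genes found in the libraries. This list too was chosen with earlier results of these data known, so it is no independent check. In cold, 30 of 51 tested rose in ASC1-like cells, where 6.12% of all genes were called higher. In DEND2-like cells 29 of 52 rose (7.51% of all genes) and 2 fell (8.88%), the latter below the share of all genes. The count was 19 of 42 in DEND1-like cells (2.66%) and 14 of 47 in ASC2-like cells (0.612%). In VEC-like cells 0 of 47 were called (0.185% of all genes higher), and in Blym-like cells 0 of 39 (0.111%), both by edgeR, with 14 and 5 at an unadjusted p under 0.05. In ASC1-like cells the largest changes were those of Phf11b (4.04 ± 0.28 (adjusted p = 0.00026)), the HIN200 gene Ifi213 (3.96 ± 0.72 (adjusted p = 0.01)), Oas1g (3.59 ± 0.69 (adjusted p = 0.013)), the T cell chemoattractant gene Cxcl10 (2.91 ± 0.35 (adjusted p = 0.0018)) and the Schlafen gene Slfn2 (2.66 ± 0.26 (adjusted p = 0.0008)). In VSMC-like cells, the chemokine genes Cxcl9 and Cxcl10 rose, by 4.39 ± 0.60 (adjusted p = 0.024) and 3.73 ± 0.59 (adjusted p = 0.039).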

How the data were processed

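Single-cell RNA-seq libraries (20) of stromal vascular cells from iBAT were made with 10x Genomics 3′ chemistry, version 2 or 3 as given with the groups. The deposited values are expected counts: the authors aligned reads to mm10 and counted UMIs with Cell Ranger 3.0.1, then corrected them for free RNA with SoupX, using Fabp4 and Car3 as genes that only adipocytes should carry, so that values need not be whole. The correction lowers genes of the free RNA in all cells and could also lower weak signal. The authors' own cell annotation was not used here.

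Cells were kept with under 10% mitochondrial UMIs and under 15000 UMIs, and with under 4000 genes in Lin+ or over 100 genes in Lin- libraries. Kept cells held 7.86e+06 to 4.20e+07 UMIs per library. The cells of each fraction were clustered with scanpy 1.11.5 in Python 3.11.15 (2000 variable genes, 30 principal components, 30 neighbours, Leiden resolution 1), without 406 genes that include the members, which gave 37 Lin- and 43 Lin+ clusters. Doublets were not removed in the main result, and an alternative left out, in each library, the top 6% of a doublet score written after the method of Scrublet (the share of simulated doublets among the neighbours of a cell).

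Counts were summed per library and class, rounded to whole numbers and tested with edgeR 4.0.16 in R 4.3.3 (TMM factors, filterByExpr, quasi-likelihood F-test, all 6 C57 libraries of a fraction in a fit, no replicate block). Adjusted p-values follow Benjamini-Hochberg across the genes tested in a class, with a threshold of 0.05. All tests are two-sided. The SE of a fold change within a class is the absolute log2 fold change divided by the square root of its F statistic. It is not a direct output of the fit, and the p-value need not follow from it. Fold changes come from the fit and need not equal ratios of CPM, which are shares of the UMIs of the class times 1000000. Differences in response between a pair of classes were tested with an edgeR term of class by treatment and the library as a block. The code was tested on simulated data.

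Within a fraction, the study merged the libraries of different treatments that came from the same replicate experiment, and the pairing of libraries by number is taken from this. Over the tested classes, the deviations of libraries with the same number from their group means had correlations of 0.035 to 0.231 between RT and COLD, -0.0667 to 0.122 between RT and CL and -0.119 to 0.366 between COLD and CL.

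The members, the other pathway genes and the markers were chosen with earlier results of these data known. All 52 members may be named. In ASC1-like, VEC-like, DEND2-like, Tlym-like Cxcr6 and Blym-like cells, values in every C57 library are given for up to 6 called members with the largest absolute log2 fold change per contrast and for Irf7, Isg15, Ifit3, Rsad2, Irf1, Gbp2, Iigp1 and the receptor chains. The ligands are given where tested and otherwise by their range, and in the other classes only some of the called members are given. Alternatives were DESeq2 1.42.0, other size factors, no filter, the replicate block, leaving out 1 library, no doublets, classes from the nearest centroid, and both lines together. Intervals and limits cover counting error only. A gene of the pathway is not reported here.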

Additional observations from a re-analysis of the deposited data

Results flagged for a closer look

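At least 1 member differed in its response to cold in 14 of the 16 pairs of classes tested, by an edgeR term for class by treatment with the library as a block and adjustment over all genes. The counts of members that differed are given here beside the share of all genes that did, and some of the genes are named with the comparison itself. Against ASC1-like cells, 5 members differed in ASC2-like cells (8.19% of all genes), 3 in ASC3-like cells (9.51%), 18 in VEC-like cells (4.11%) and 3 in VSMC-like cells (6.11%), out of 49 members tested in each. The share of members was thus near that of all genes in ASC2-like and VSMC-like cells and below it in ASC3-like cells. The share of members in VEC-like cells stood above that of all genes, with a median difference of -0.64 on the log2 scale over the members and a median near 0 over all genes.

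Against Blym-like cells, 17 members differed in DEND2-like cells (2.95% of all genes), 10 in DEND1-like cells (1.64%), 9 in DEND4-like cells (1.28%) and 4 in DEND3-like cells (1.49%). Among the macrophages, the count was 6 in MAC3-like cells (1.37%) and 5 in MAC-like Cd163 cells (1.57%). The median difference over all genes was 0.37 in MAC3-like cells and -0.20 in MAC-like Cd163 cells, so that the members' medians there, 1.11 and 0.66, are read against those shifts. The count was 4 each in NEUT-like (0.903%) and NK-like cells (0.652%), 3 in Tlym-like Cxcr6 cells (0.095%) and 1 in MONO-like Ace cells (0.424%). With sums thinned to equal depth, the count was 1 in VSMC-like, 9 in DEND2-like, 3 in DEND4-like, 2 each in DEND3-like, MAC3-like and NEUT-like and 0 in MONO-like Ace cells.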

How the results depend on the processing

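Counts are of called members, and a sentence gives the alternatives that moved one by over 1.5 times. With classes from the nearest centroid, cold called 9 members in ASC2-like, 3 in VSMC-like, 18 in DEND1-like, 11 in DEND3-like and 4 in NEUT-like cells and 12 over the 4 classes without a call. Without a filter on low counts, cold called 28 in ASC3-like, 13 in SCHWANN-like, 16 in VEC-like, 26 in VSMC-like, 16 in DEND3-like, 24 in DEND4-like, 23 in MAC-like Cd163, 24 in MAC3-like, 18 in NEUT-like and 25 in Tlym-like Cxcr6 cells and 7 over the 4 classes. With both lines in a fit, it called 12 in SCHWANN-like, 16 in VEC-like, 16 in VSMC-like, 13 in DEND3-like, 14 in DEND4-like, 17 in MAC3-like and 20 in NEUT-like cells and 16 over the 4 classes. DESeq2 called 18 in VSMC-like, 5 in DEND4-like, 20 in MAC3-like, 2 in NK-like and 9 in Tlym-like Cxcr6 cells. Without the top doublet scores, 3 were called in SCHWANN-like, 1 in VSMC-like and 1 in NEUT-like cells. With the replicate block, which pairs libraries of the same number, 18 were called in VSMC-like, 17 in MAC3-like and 17 in NEUT-like cells.

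With CL, the replicate block gave 13 in ASC1-like, 8 in DEND2-like, 5 in MAC-like Cd163 and 5 in NEUT-like cells and 10 over the other 15 classes. DESeq2 gave 16, 9, 3, 3 and 16, and no filter 19, 16, 14, 15 and 46, in the same order. The nearest centroid gave 2, 0, 2 and 0 in the first 4. Without the top doublet scores, 3 were called in MAC-like Cd163 cells and 1 over the other 15 classes. Without the barcodes shared by the CL 2 libraries, an alternative chosen after seeing the data as was that without the Cxcl10 cluster, 3 were called in ASC1-like cells. For cold against CL, whose alternatives were also added after seeing the data, no filter gave 33 in ASC1-like, 29 in DEND1-like and 34 in DEND2-like cells and 285 over all classes, the nearest centroid gave 11, 1, 4 and 36, and the replicate block 28 in DEND2-like cells and 157 over all classes. Beside these and the counts printed with the comparisons, the block moved no other count that is printed by over 1.5 times. No single member whose test is printed lost its call under it, and the cause of these moves was not tested.

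Leaving out 1 library at a time assumes that the lone library of a group varies like the others. After cold the count then ran from 29 to 35 in ASC1-like, 6 to 18 in ASC2-like, 10 to 14 in ASC3-like, 3 to 10 in SCHWANN-like, 0 to 0 in VEC-like and 3 to 9 in VSMC-like cells. It ran from 9 to 20 in DEND1-like, 22 to 29 in DEND2-like, 1 to 5 in DEND3-like, 2 to 6 in DEND4-like, 1 to 9 in MAC-like Cd163, 0 to 5 in MAC3-like, 1 to 9 in NEUT-like, 1 to 10 in NK-like and 8 to 16 in Tlym-like Cxcr6 cells and from 0 to 5 over the 4 classes. With CL it ran from 1 to 10 in ASC1-like, 0 to 7 in DEND2-like, 0 to 15 in MAC-like Cd163 and 0 to 13 in NEUT-like cells and from 2 to 9 over the others. For cold against CL it ran from 4 to 22 in ASC1-like, 9 to 13 in DEND1-like and 1 to 19 in DEND2-like cells and from 22 to 106 over all classes.

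Sums thinned to equal depth gave differing responses in 1 member of VSMC-like, 9 of DEND2-like, 2 of DEND3-like, 3 of DEND4-like, 2 of MAC3-like, 0 of MONO-like Ace and 2 of NEUT-like cells. Thinned to 1000 UMIs, the mean share of cells with Ifng was 21.1% at RT, 19.7% in cold and 20.3% with CL in Tlym-like Cxcr6 cells and 18.7% at RT, 20.2% in cold and 19.2% with CL in NK-like cells, with an SD over 2 libraries of 0.933 to 12.7 percentage points. Thinned to 500 UMIs, the share of cells with at least 10 UMIs of stimulated members rose from RT to cold by 25.96 percentage points in ASC1-like, 17.2 in VEC-like, 23.6 in DEND2-like and 12.5 in Tlym-like Cxcr6 cells. MAC3-like cells under the nearest centroid and DEND4-like cells without the top doublet scores had too few cells for a fit. Of 7684 values of single members under an alternative, 6996 kept their direction and side of the threshold, 469 lost the call and 219 gained it. Of 3147 comparisons for the 262 pairs called after cold, 1 changed sign.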
